A study of Arabidopsis thaliana with 12 samples.

Results

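The genes described here encode VQ motif proteins of Arabidopsis thaliana. The family was taken as a list of 30 loci, and 24 of the 30 had a row among the 12905 genes of the count table. The remaining 6 (AT1G35830, AT3G18360, AT3G58000, AT3G60090, AT4G37710, which RefSeq names VQ29, and AT5G08480) had no row and were not analysed here. The one measured rule applied to the listed genes was presence in that table, which kept genes with at least 5 reads in 1 or more libraries. A member could thus enter through a dose at which it was high. The members were selected on family membership and on that minimum of reads, and were chosen with earlier results of these data known. The choice was thus not blind to the levels reported here. Counts of members are given as a description, beside the share of all genes that did the same, and not as a test of the family.

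Seedlings of the wild type Col-0, 2 weeks old and grown on plates at 22 °C with 16 h of light and 8 h of dark, were equilibrated in water for at least 1 h. They then received cycloheximide (CHX) at 0, 1, 10 or 100 µM for 2 h under light of 30 µE. CHX blocks translation by cytosolic ribosomes, and the series asked how transcript levels responded to its dose. Each dose had 3 libraries of whole seedlings, made by bulk MARS-seq, which reads the 3′ ends of polyadenylated RNA. Because whole seedlings were used, fewer cells of a type and less RNA per cell cannot be told apart.

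VQ proteins are small plant proteins named after a valine-glutamine pair in a short conserved motif. Many of them bind WRKY transcription factors of groups I and IIc, which recognise the W box in promoters, and several are substrates of the mitogen-activated protein (MAP) kinases that act in immunity. SIB1, SIB2 and MKS1 bind WRKY33, a regulator of defence against necrotrophic fungi, while JAV1 is a repressor of jasmonate defence that is degraded after wounding.

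The motif was present in all 30 listed genes: each coding sequence held 1 stretch of 30 bases that encodes the pattern FxxxVQxxTG. The stretches below are shown because they define the family and because the responses of near relatives to CHX are set side by side further on. They are from the TAIR10.1 assembly with the RefSeq annotation, lie within the coding exon, and run 5′ to 3′ on the coding strand, with the valine and glutamine codons in capitals.
SIB1, chr3:21007308-21007337, minus strand: ttcagagagctcGTTCAAgaactcacaggc
SIB2, chr2:17165404-17165433, plus strand: ttcagagagcttGTTCAAgaactcaccggt
AT1G78410, chr1:29502812-29502841, plus strand: ttcaagaccgttGTTCAAgaactcaccggt
AT1G17147, chr1:5863843-5863872, minus strand: ttcaagacaattGTTCAAgaactcacaggt
MVQ1, chr1:9887168-9887197, minus strand: ttcaaacaagtcGTCCAGatgctaaccgga
MVQ2, chr2:14291567-14291596, minus strand: ttcaagcaagtcGTCCAActgctcaccgga
MVQ3, chr5:21857231-21857260, plus strand: ttcaaacaagtcGTTCAGatgcttaccggc
MVQ4, chr3:5148043-5148072, minus strand: ttcaaacaagtcGTTCAGatgctcaccgga
CAMBP25, chr2:17114330-17114359, minus strand: tttcgtcagatgGTTCAGcaagtgactggc
AT3G56880, chr3:21060437-21060466, plus strand: ttccggcagatgGTTCAAcaagtcaccgga
JAV1, chr3:7818472-7818501, minus strand: ttccgtgccatgGTTCAGcaatacactggc
AT4G15120, chr4:8634992-8635021, plus strand: ttcagagccatgGTGCAAcaattcaccggc
MKS1, chr3:6430148-6430177, minus strand: ttcatgaacgtaGTCCAGcgactcacaggg
AT4G20000, chr4:10838580-10838609, plus strand: ttccgagccctaGTTCAGaaatttaccgga

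Among the 24 measured genes, the 2 codons occurred in 5 combinations, of which GTTCAG (9 genes) and GTTCAA (7 genes) were the commonest. All 24 had their coding sequence in 1 uninterrupted segment, against 19.6% of 12589 genes of the table with a coding region in RefSeq. Their coding sequences were also short, with a median of 621 bases against 1170 bases over all genes. SIB1 and SIB2 shared 67.8% of aligned coding positions and 27 of the 30 bases of the stretch. The other close pairs were AT1G78410 and AT1G17147 (70.0%, 27 of 30), CAMBP25 and AT3G56880 (65.3%, 24 of 30), JAV1 and AT4G15120 (63.7%, 24 of 30), MVQ1 and MVQ2 (59.2%, 26 of 30), and MVQ3 and MVQ4 (57.4%, 28 of 30).

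Library totals lay between 1073063 and 3724564 counts. Levels are in CPM, the count of a gene relative to its library's total after correction by TMM factors (the trimmed mean of log ratios between libraries), and SD is over 3 libraries. Every scaling factor at 0 µM (1.40 to 1.55) was above every factor at 100 µM (0.681 to 0.767). A gene is called higher or lower where edgeR gave it a change of 2-fold or more with an adjusted p, over the 12905 genes, under 0.05. The labels do not tell whether separate cultures lie behind the libraries of a dose, and the p-values thus reflect the spread among these libraries only, which may be technical. Defining shoot and root genes were detected at every dose. CAB1, a light-harvesting protein, had 1035 ± 134 CPM at 100 µM against 3047 ± 728 CPM at 0 µM, and CASP1, a root endodermis protein, had 5.83 ± 1.55 CPM against 23.6 ± 4.54 CPM. The seed storage gene SESA1 had 68.8 ± 15.1 CPM at 100 µM against 0.765 ± 0.690 CPM at 0 µM. Their part in the values below was not tested.

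VQ transcripts were higher in CHX at every dose. The 24 genes together took 0.287 to 0.385% of all counts at 1 µM against 0.0373 to 0.0481% at 0 µM. They took 0.594 to 0.645% at 10 µM and 0.547 to 0.566% at 100 µM, so that no library in CHX overlapped those at 0 µM. This share is weighted to a few members. At 100 µM AT4G20000, MKS1 and SIB1 averaged 2132, 1524 and 1380 CPM, and AT1G80450 came next at 592 CPM. At 1 against 0 µM, 20 of the 24 genes were called higher and none lower, where 13.5% of all genes were called higher and 3.12% lower. At 10 against 0 µM the count was again 20 higher and 0 lower, where 22.4% of all genes were called higher and 12.1% lower. The comparison of 100 with 0 µM also gave 20 higher and 0 lower, where 23.8% of all genes were called higher and 14.9% lower. These 3 comparisons share the libraries at 0 µM. MVQ2, MVQ3, AT1G17147, AT2G22880, AT2G44340 and AT5G65170 had fewer than 5 reads in every library at 0 µM. They entered the table through CHX libraries alone. Where they were called higher, that minimum of reads favoured the direction, and their calls add no support. The median log2 change of the VQ genes was 2.62, 3.96 and 4.04 at 1, 10 and 100 µM, against 0.02 over all genes at each dose. In the joint test over the 4 doses, 21 of 24 differed between doses, as did 52.9% of all genes.

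**Figure D1:**
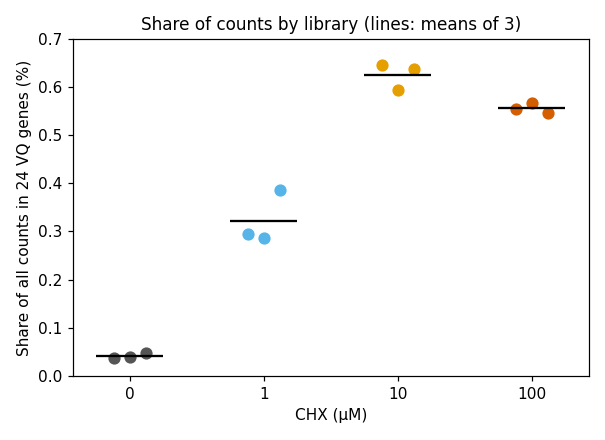
Share of all counts of a library, in percent, taken by the 24 VQ genes, by CHX dose, with 1 point per library and a line at the mean of 3. The libraries at 0 µM lie between 0.0373 and 0.0481%, below every library in CHX.

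The direction at the level of the family did not depend on the scaling, but the counts did. With total counts alone, 18, 19 and 16 members were called higher at 1, 10 and 100 µM and none lower. Of all genes, 10.5%, 14.6% and 14.3% were then called higher. Under that scaling the median of all genes shifted to -0.31, -0.82 and -1.01, and over all genes 1846 were called higher and 5634 lower at 100 µM, against 3072 and 1927 with TMM. With the listed reference genes, whose use moved the median of all genes to -0.29, 0.24 and 0.53, the counts were 18, 21 and 21 higher and none lower. The shares of all genes called higher were 10.5%, 25.2% and 31.8%.

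Among the partners of WRKY33, SIB1 (sigma factor binding protein 1, a VQ protein of defence) was higher at each dose of CHX than at 0 µM. SIB1 had 11.1, 22.6 and 28.6 CPM at 0 µM, 388, 441 and 470 CPM at 1 µM, 1394, 1212 and 1208 CPM at 10 µM, and 1319, 1442 and 1379 CPM at 100 µM. No library at 1 µM reached a library at 10 µM, while the 10 and 100 µM libraries overlapped. The log2 change was 6.09 ± 0.27 (SE) at 100 against 0 µM, a 67.9-fold rise (edgeR adjusted p = 4.8e-14).

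SIB2, its close relative, started higher and rose less. It had 30.2, 48.9 and 60.8 CPM at 0 µM, 138, 106 and 158 CPM at 1 µM, 212, 243 and 214 CPM at 10 µM, and 164, 182 and 191 CPM at 100 µM. All libraries in CHX were above those at 0 µM, and the 100 µM libraries all lay below those at 10 µM. The rise was 3.88-fold at 100 against 0 µM (log2 1.96 ± 0.22, edgeR adjusted p = 1.8e-07), but short of 2-fold with total counts (log2 0.92), and the difference between the log2 changes of SIB1 and SIB2 was not tested. The comparison of 100 with 10 µM gave a log2 change of -0.32 ± 0.20 that did not pass (edgeR adjusted p = 0.41). SIB2 lies within the span of AT2G41178 on the opposite strand (920 bases), and whether counting used strand is not given in the sources used here, so reads of the pair cannot be told apart. AT2G41178 itself averaged 0.676 CPM at 0 µM, 16.1 CPM at 1 µM, 3.42 CPM at 10 µM and 1.09 CPM at 100 µM.

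MKS1, a substrate of MAP kinase 4 that binds WRKY33, had 28.9, 32.6 and 50.5 CPM at 0 µM, 349, 334 and 473 CPM at 1 µM, 1207, 1106 and 1491 CPM at 10 µM, and 1331, 1647 and 1593 CPM at 100 µM. The doses 0, 1 and 10 µM did not overlap, and those at 10 and 100 µM did. MKS1 rose 40.8-fold at 100 against 0 µM (log2 5.35 ± 0.25, edgeR adjusted p = 9.9e-14). It overlaps AT3G03745 by 128 bases and AT3G18680 by 159 bases, both on the opposite strand. AT3G18680 is a gene with 4.78 CPM at 100 µM against 5.31 CPM at 0 µM.

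MVQ1, named as a target of MAP kinases 3 and 6, was highest at 10 µM. Its levels were 43.5, 29.5 and 31.3 CPM at 0 µM, 99.6, 102 and 122 CPM at 1 µM, 177, 135 and 184 CPM at 10 µM, and 118, 118 and 92.4 CPM at 100 µM. Every library at 10 µM exceeded every library at 1 and at 100 µM. The rise was 4.69-fold at 10 µM (log2 2.23 ± 0.20, edgeR adjusted p = 5.5e-09) and 3.10-fold at 100 µM (log2 1.63 ± 0.20, edgeR adjusted p = 6.7e-07), both against 0 µM. With total counts MVQ1 at 100 µM was not called (log2 0.58).

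MVQ2, the closest member to MVQ1, had 0 counts in all 3 libraries at 0 µM. It had 2.49, 0.333 and 5.06 CPM at 1 µM, 43.1, 22.8 and 54.3 CPM at 10 µM, and 61.9, 33.2 and 9.36 CPM at 100 µM. Libraries of 1 dose differed widely at all 3 doses of CHX. With 3 counts over the group taken as the floor at 0 µM, MVQ2 was at least 5.83-fold higher at 1 µM, 90.1-fold at 10 µM and 75.1-fold at 100 µM. The call at 1 µM rested on 21 counts (edgeR adjusted p = 0.044), and it was lost when any library at 0 µM, 1 µM replicate 1 or 3, or 100 µM replicate 2 was left out (edgeR adjusted p = 0.051 to 0.16), and also under the 3 other scalings, filterByExpr and thinning (edgeR adjusted p = 0.050 to 0.076).

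MVQ3 had 0.953, 0 and 0.894 CPM at 0 µM, 1.78, 1.33 and 2.72 CPM at 1 µM, 13.6, 3.96 and 4.86 CPM at 10 µM, and 4.76, 14.1 and 14.0 CPM at 100 µM. The libraries at 10 and 100 µM overlapped each other and lay above those at 0 and 1 µM. MVQ3 rose 15-fold at 100 against 0 µM (log2 3.90 ± 0.69, edgeR adjusted p = 6.4e-05), while 1 against 0 µM did not pass (log2 1.38 ± 0.84, adjusted p = 0.26). MVQ4, its closest relative, stayed under 10 CPM on average at each dose, between 2.68 and 11.6 CPM over the 12 libraries, and was called at 100 µM alone (2.34-fold, log2 1.23 ± 0.42, edgeR adjusted p = 0.019). Without 0 µM replicate 1 or 3, or without 100 µM replicate 2, MVQ4 was not called (edgeR adjusted p = 0.050, 0.063 and 0.18), nor was it with total counts (log2 0.18, edgeR adjusted p = 0.71) or after thinning (edgeR adjusted p = 0.20), and the joint test did not call it (adjusted p = 0.082).

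JAV1, the repressor of jasmonate defence, had 20.7, 15 and 27.7 CPM at 0 µM, 107, 112 and 135 CPM at 1 µM, 316, 230 and 284 CPM at 10 µM, and 272, 355 and 353 CPM at 100 µM. Its libraries at 0, 1 and 10 µM were apart from each other. JAV1 rose 15.2-fold at 100 against 0 µM (log2 3.93 ± 0.23, edgeR adjusted p = 3.3e-12). AT4G15120, the member nearest to JAV1 in sequence, followed another course, with 2.54, 4.39 and 5.37 CPM at 0 µM, 33.5, 30.7 and 51.7 CPM at 1 µM, 43.1, 36.3 and 47.3 CPM at 10 µM, and 27.8, 29.7 and 23.4 CPM at 100 µM. Its 100 µM libraries lay below all those at 1 and 10 µM, although 100 against 10 µM did not pass (log2 -0.64 ± 0.24, edgeR adjusted p = 0.11). The rise was 9.68-fold at 1 µM and 6.79-fold at 100 µM against 0 µM (edgeR adjusted p = 1.9e-08 and 2.5e-07).

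**Figure D2:**
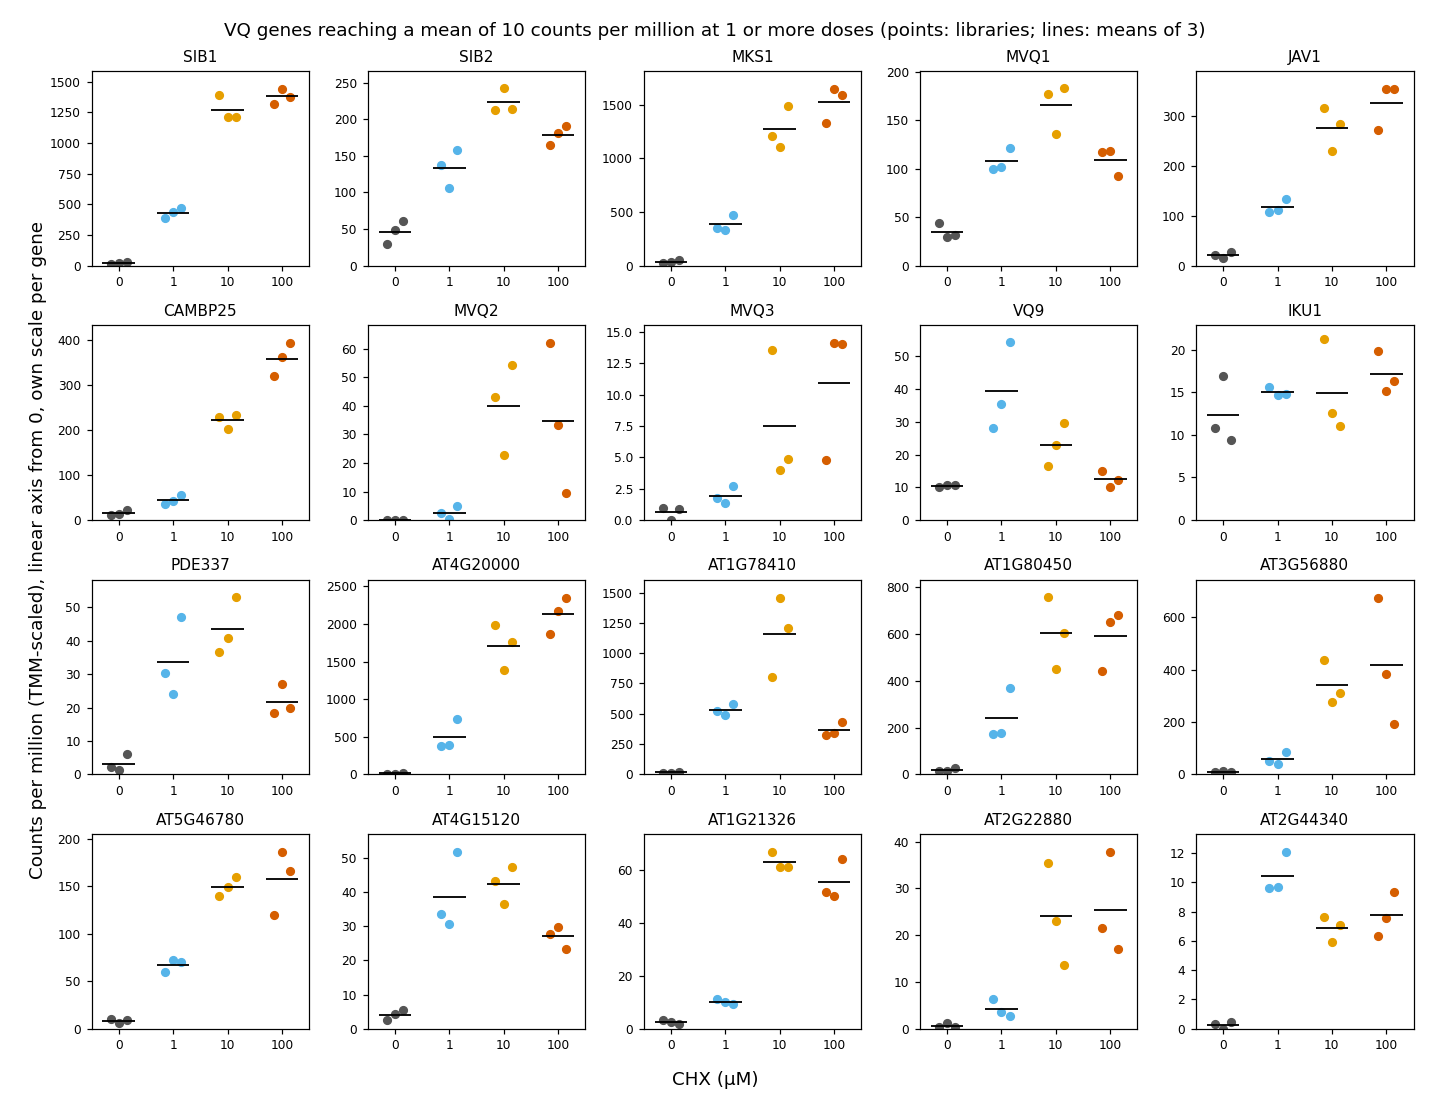
CPM of the 20 VQ genes that reached a mean of 10 CPM at 1 or more doses, by CHX dose in µM, with 1 point per library, a line at the mean of 3 and a linear axis from 0 scaled to each gene. SIB1 averages 1271 CPM at 10 µM and 1380 CPM at 100 µM, while AT1G78410 averages 1156 CPM at 10 µM and 368 CPM at 100 µM, and IKU1 stays between 9.39 and 21.2 CPM throughout.

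CAMBP25, a calmodulin-binding protein of stress responses, climbed over all 4 doses. It had 10.2, 14.4 and 22.4 CPM at 0 µM, 36.7, 43.0 and 55.2 CPM at 1 µM, 229, 202 and 235 CPM at 10 µM, and 321, 362 and 394 CPM at 100 µM. No neighbouring doses overlapped. The change was 23.2-fold at 100 against 0 µM (log2 4.54 ± 0.25, edgeR adjusted p = 1.4e-12), and at 100 against 10 µM it was 1.62-fold (log2 0.70 ± 0.20, adjusted p = 0.034), below the 2-fold limit for a call.

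AT3G56880, the relative of CAMBP25, had 10.8, 13.2 and 9.39 CPM at 0 µM, 50.2, 41.3 and 86.8 CPM at 1 µM, 439, 277 and 312 CPM at 10 µM, and 676, 383 and 192 CPM at 100 µM. The 100 µM libraries spread so far that they enclosed all those at 10 µM. The rise over 0 µM was 37.7-fold at 100 µM (log2 5.24 ± 0.41, edgeR adjusted p = 5.1e-10).

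VQ9, which in Arabidopsis acts with WRKY8 in the response to salt, had its highest mean at the lowest dose of CHX. It had 10.2, 10.7 and 10.7 CPM at 0 µM, 28.1, 35.3 and 54.5 CPM at 1 µM, 16.6, 22.8 and 29.6 CPM at 10 µM, and 15.1, 10.1 and 12.3 CPM at 100 µM. The 100 µM libraries spanned those at 0 µM, and those at 1 and 10 µM overlapped. At 10 against 1 µM the log2 change was -0.78 ± 0.25 (edgeR adjusted p = 0.024), short of 2-fold and not called. VQ9 rose 3.72-fold at 1 µM (log2 1.90 ± 0.28, edgeR adjusted p = 1.7e-05) and at 10 µM (log2 1.12 ± 0.29, adjusted p = 0.0030), with a log2 change of 0.22 ± 0.33 at 100 µM (adjusted p = 0.60). The call at 10 µM was lost without 10 µM replicate 3 (log2 0.90), with total counts (log2 0.26, edgeR adjusted p = 0.43) and after thinning to the smallest library (log2 0.60, edgeR adjusted p = 0.32), and the value at 100 µM turned to -0.82 with total counts.

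IKU1, which promotes endosperm growth and seed size, was called in no comparison. Its libraries had 10.8, 16.9 and 9.39 CPM at 0 µM, 15.7, 14.7 and 14.8 CPM at 1 µM, 21.2, 12.5 and 11.0 CPM at 10 µM, and 19.9, 15.1 and 16.4 CPM at 100 µM. The doses overlapped throughout. Its log2 change was 0.49 ± 0.30 at 100 against 0 µM (edgeR adjusted p = 0.19), a value that turned to -0.56 with total counts and became 1.01, past the thresholds, with the reference genes.

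PDE337, named for a pigment-defective embryo phenotype, had 2.22, 1.25 and 6.26 CPM at 0 µM, 30.3, 24 and 47.1 CPM at 1 µM, 36.8, 40.9 and 53.0 CPM at 10 µM, and 18.3, 27.2 and 19.9 CPM at 100 µM. All libraries in CHX were above those at 0 µM, and those at 100 µM were below those at 10 µM. The rise was 12.9-fold at 10 µM and 6.59-fold at 100 µM against 0 µM (edgeR adjusted p = 3.9e-08 and 8.7e-06). At 100 against 10 µM the log2 change was -0.97 ± 0.30 (edgeR adjusted p = 0.045), just short of 2-fold, and PDE337 was called lower when a single library at 0 µM, or 1 µM replicate 2 or 3, was left out (log2 -1.02 each time).

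Of the members given here by locus alone, AT4G20000 had the largest rise among those with counts in every library at 0 µM. It had 9.85, 9.40 and 20.1 CPM at 0 µM, 374, 390 and 731 CPM at 1 µM, 1985, 1384 and 1756 CPM at 10 µM, and 1871, 2172 and 2352 CPM at 100 µM. The doses up to 10 µM did not overlap. The change was 161-fold at 100 against 0 µM (log2 7.34 ± 0.34, edgeR adjusted p = 1.0e-13).

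AT1G78410 was the one member called lower at 100 against 10 µM. It had 15.9, 13.8 and 18.3 CPM at 0 µM, 524, 486 and 584 CPM at 1 µM, 806, 1459 and 1204 CPM at 10 µM, and 329, 344 and 431 CPM at 100 µM. Each library at 100 µM was below each library at 1 µM and at 10 µM, yet far above those at 0 µM. AT1G78410 fell to 368 ± 55.2 CPM at 100 µM, against 1156 ± 329 CPM at 10 µM, which is 3.14-fold lower (log2 -1.65 ± 0.20, edgeR adjusted p = 1.9e-05). Against 0 µM it rose 71.5-fold at 10 µM and 22.8-fold at 100 µM (edgeR adjusted p = 2.7e-14 and 1.3e-12).

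AT1G80450 had 12.7, 16.3 and 26.4 CPM at 0 µM, 171, 179 and 369 CPM at 1 µM, 756, 450 and 602 CPM at 10 µM, and 442, 651 and 683 CPM at 100 µM. Libraries at 10 and 100 µM overlapped and lay above those at 1 µM. The rise at 100 µM was 32.3-fold (log2 5.01 ± 0.34, edgeR adjusted p = 5.9e-11). AT5G46780 was steadier between libraries, with 10.5, 5.64 and 9.39 CPM at 0 µM, 59.4, 72 and 70.4 CPM at 1 µM, 140, 149 and 160 CPM at 10 µM, and 120, 186 and 166 CPM at 100 µM. It too levelled off at 10 µM and rose 17.8-fold at 100 against 0 µM (log2 4.15 ± 0.24, edgeR adjusted p = 2.8e-12).

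The locus AT1G21326 had 3.5, 2.51 and 1.79 CPM at 0 µM, 11.4, 10.0 and 9.34 CPM at 1 µM, 67.0, 61.1 and 61.4 CPM at 10 µM, and 51.6, 50.4 and 64.3 CPM at 100 µM. Its main step was between 1 and 10 µM, where the libraries were far apart (6.13-fold, log2 2.62 ± 0.21, edgeR adjusted p = 5.4e-09). The last 300 bases of its transcript matched AT1G21320 at 99.3% identity, so the assignment of reads between the 2 loci is uncertain. AT1G21320 averaged 10.3 CPM at 0 µM, 17.8 CPM at 1 µM, 9.79 CPM at 10 µM and 9.05 CPM at 100 µM.

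AT2G22880 had 0.318, 1.25 and 0.447 CPM at 0 µM, 6.41, 3.67 and 2.72 CPM at 1 µM, 35.5, 23.1 and 13.7 CPM at 10 µM, and 21.4, 37.8 and 17.0 CPM at 100 µM. The libraries at 0, 1 and 10 µM stood apart. The rise was 40.9-fold at 100 against 0 µM (log2 5.35 ± 0.59, edgeR adjusted p = 1.2e-07), and the gene overlaps AT2G22870 on the opposite strand over 345 bases. At 1 against 0 µM it was called (6.88-fold, edgeR adjusted p = 0.0070), but not without 0 µM replicate 1 (edgeR adjusted p = 0.055). The locus AT2G44340 had 0.318, 0 and 0.447 CPM at 0 µM, 9.61, 9.67 and 12.1 CPM at 1 µM, 7.62, 5.94 and 7.07 CPM at 10 µM, and 6.35, 7.56 and 9.36 CPM at 100 µM. It was highest at 1 µM, where no library overlapped those of another dose. With 2 counts in all at 0 µM, the ratio was 36.2 at 1 µM (95% exact counting interval 9.73 to 304) and 27.5 at 100 µM (7.11 to 235).

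The members other than MVQ4 that stayed below 10 CPM at each dose were AT1G17147, AT2G42140 and AT5G65170. AT1G17147 had in all 0 counts at 0 µM, 12 counts at 1 µM, 19 counts at 10 µM and 3 counts at 100 µM, and was called at 1 and 10 µM, where it was at least 3.33-fold and 5.32-fold higher than the floor at 0 µM. The call at 1 µM was lost without 0 µM replicate 1 or 3 or 1 µM replicate 3 (edgeR adjusted p = 0.051 to 0.079). Its 3′ end resembles 57 other places in the genome at 90% identity or more, so its counts are uncertain. AT2G42140 ranged from 1.34 to 13.5 CPM and was called at 1 µM (edgeR adjusted p = 0.047) and 100 µM (edgeR adjusted p = 0.0067), not at 10 µM, and the call at 1 µM was lost under all 3 other scalings and without 0 µM replicate 1 or 3, any library at 1 µM, 10 µM replicate 2 or 3, or 100 µM replicate 2. The call of AT2G42140 at 100 µM was lost with total counts (log2 0.68, edgeR adjusted p = 0.25) and after thinning to the smallest library (log2 1.35, edgeR adjusted p = 0.16). AT5G65170 ranged from 0.333 to 3.65 CPM and was called in no comparison.

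**Figure D3:**
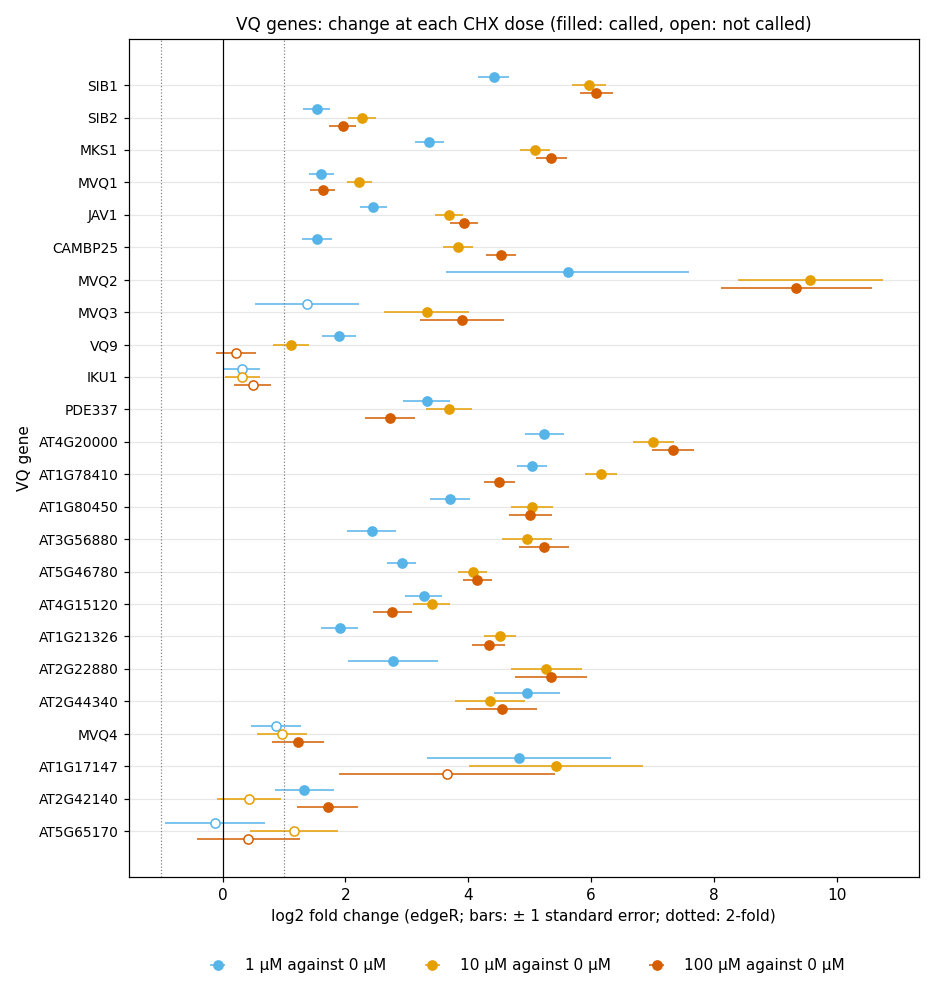
log2 fold change of the 24 VQ genes at 1, 10 and 100 µM against 0 µM (edgeR), with bars of 1 SE, filled points for called genes, open points for those not called and dotted lines at 2-fold. At 100 µM the changes run from 0.22 for VQ9 to 9.34 for MVQ2, whose value depends on the prior count since it had 0 counts at 0 µM.

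The doses in sequence split the family. At 10 against 1 µM, 13 of 24 members were called higher and none lower, where 12.2% of all genes were called higher and 4.98% lower, with a median log2 change of 1.19 against 0.00 over all genes. With total counts alone 9 were called higher and 3 lower (VQ9, AT2G42140 and AT2G44340), where 7.55% of all genes were called higher and 18.8% lower. The reference genes as scale gave 15 higher and 0 lower, where 22.5% of all genes were called higher and 1.04% lower. The 13 called with TMM were SIB1, MKS1, JAV1, CAMBP25, MVQ2, MVQ3, AT4G20000, AT1G78410, AT1G80450, AT3G56880, AT5G46780, AT1G21326 and AT2G22880. Among them MVQ3 lost its call without 1 µM replicate 2 or 10 µM replicate 1 (edgeR adjusted p = 0.059 and 0.18), and AT1G78410 fell short of 2-fold without 10 µM replicate 2 (log2 0.92). At 100 against 10 µM none was called higher and AT1G78410 alone was called lower, where 2.19% of all genes were called higher and 2.48% lower, and the median log2 change was 0.08 against 0.01 over all genes.

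The mean was highest at 0 µM for no member, at 1 µM for VQ9 and AT2G44340, at 10 µM for 10 members and at 100 µM for 12. Over all genes the highest mean fell at 0 µM for 34.3% of genes, at 1 µM for 17.3%, at 10 µM for 17.9% and at 100 µM for 30.5%. For the members other than AT1G78410 the order of 10 and 100 µM is a description of the means, since none of them passed both thresholds between these doses.

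**Figure D4:**
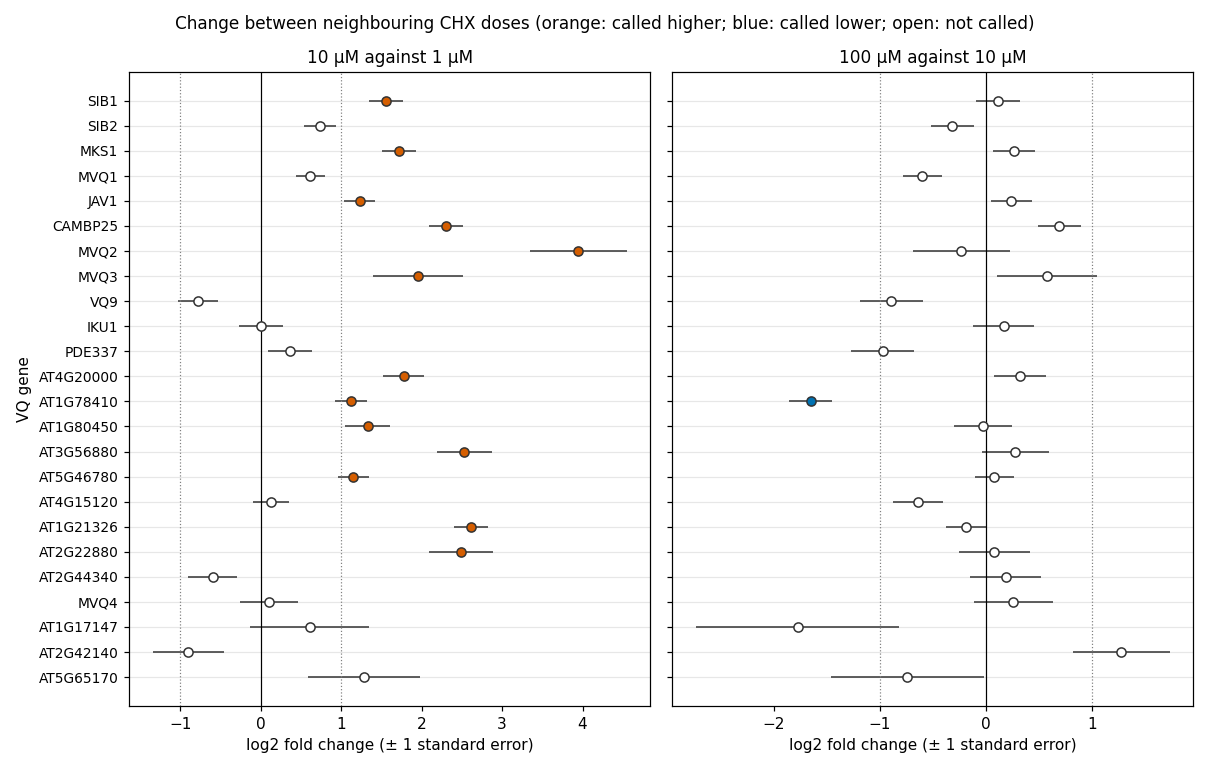
log2 fold change of the 24 VQ genes at 10 against 1 µM (left) and 100 against 10 µM (right), with bars of 1 SE, orange points for genes called higher, blue for lower, open for not called and dotted lines at 2-fold. On the left 13 genes are called higher, and on the right AT1G78410 is the one called gene, at -1.65.

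Upstream sequence was searched because most members were called higher at each dose of CHX and the WRKY partners of the family recognise the W box. Within 250 bases before the transcript start, TTGACC or TTGACT occurred on either strand in 10 of the 24 genes (41.7%), against 29.6% of 12831 genes of the table, and in 2 or more copies in AT1G80450, MKS1 and AT4G15120 (12.5% against 6.84%). The letters CGCGTT, which do not overlap the W box, were found in SIB2 alone (4.17% against 3.06%), and the G-box CACGTG was in none of the 24 windows, against 7.44% of all genes. The windows of MKS1, AT4G20000 and AT1G80450, with W boxes in capitals, and of SIB1, which held no match, are shown as members with some of the largest rises (TAIR10.1, 5′ to 3′ towards the transcript start, where AGTCAA is TTGACT read on the other strand). A match is a description of letters and not of binding.
MKS1, chr3:6430518-6430767, minus strand: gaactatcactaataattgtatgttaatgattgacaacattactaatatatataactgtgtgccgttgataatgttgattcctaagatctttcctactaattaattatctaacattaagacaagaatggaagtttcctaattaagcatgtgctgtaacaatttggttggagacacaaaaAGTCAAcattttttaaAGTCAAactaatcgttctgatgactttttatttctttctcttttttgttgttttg
AT4G20000, chr4:10838060-10838309, plus strand: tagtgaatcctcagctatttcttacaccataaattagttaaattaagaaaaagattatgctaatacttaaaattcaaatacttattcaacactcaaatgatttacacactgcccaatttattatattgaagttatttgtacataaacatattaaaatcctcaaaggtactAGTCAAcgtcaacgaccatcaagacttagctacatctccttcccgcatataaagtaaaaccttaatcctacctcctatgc
AT1G80450, chr1:30244950-30245199, minus strand: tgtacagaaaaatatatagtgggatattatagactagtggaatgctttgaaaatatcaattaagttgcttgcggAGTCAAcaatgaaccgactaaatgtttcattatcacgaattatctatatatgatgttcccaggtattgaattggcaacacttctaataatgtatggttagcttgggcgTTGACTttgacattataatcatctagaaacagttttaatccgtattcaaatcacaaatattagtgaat
SIB1, chr3:21008069-21008318, minus strand: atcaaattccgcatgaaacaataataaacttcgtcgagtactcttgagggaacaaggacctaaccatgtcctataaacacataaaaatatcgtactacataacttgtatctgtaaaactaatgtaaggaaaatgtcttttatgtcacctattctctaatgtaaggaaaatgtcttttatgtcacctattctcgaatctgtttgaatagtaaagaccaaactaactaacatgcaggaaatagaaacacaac

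The nearest match lay 55 bases before the start in MKS1, 80 in AT4G20000 and 68 in AT1G80450. SIB1 had no match in its window. The other members with a match were PDE337, MVQ2, CAMBP25, AT2G22880, AT2G44340, AT3G56880 and AT4G15120. Whether the matches go with the size of the rise was not tested.

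The genes of known partners were drawn from lists of group I and group IIc WRKY factors, MAP kinase cascade members and other partners, of which 11 of 14, 7 of 17, 7 of 8 and 5 of 5 had a row in the table. WRKY25, WRKY8, WRKY28, WRKY51, WRKY59, MKK2 and JAZ8 had fewer than 5 reads in every library at 0 µM. These genes entered the table through CHX libraries alone. Where they were called higher, that minimum of reads favoured the direction, and their calls add no support. At 1 µM, 3 group I, 5 group IIc, 4 cascade and 1 of the other genes were called higher against 0 µM and none lower. Of all genes, 13.5% were called higher there and 3.12% lower. At 10 µM the counts called higher were 4, 6, 4 and 2 in the same order, again with none lower. The shares of all genes were 22.4% higher and 12.1% lower. At 100 against 0 µM, 4 of 11 group I WRKY genes were called higher and 1 lower, where 23.8% of all genes were called higher and 14.9% lower, with a median log2 change of 0.73 against 0.02 over all genes. Group I thus lay near the shares of all genes in both directions. WRKY33 had 4952 ± 587 CPM at 100 µM against 67.8 ± 11.2 CPM at 0 µM (73.0-fold, log2 6.19 ± 0.25, edgeR adjusted p = 1.2e-14). WRKY26 had 23.6 ± 2.57 CPM against 4.59 ± 1.32 CPM at 0 µM (4.88-fold), and WRKY58 had 12.9 ± 2.61 CPM against 3.00 ± 0.708 CPM (4.10-fold), both called, and WRKY25, below 10 CPM, was the fourth. The gene called lower was WRKY3, with 8.61 ± 2.15 CPM at 100 µM against 19.6 ± 5.56 CPM at 0 µM. With the reference genes as scale, 8 of the list were called higher and none lower, where 31.8% of all genes were called higher and 6.35% lower.

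Of 7 group IIc WRKY genes 5 were called higher and none lower, beside 23.8% and 14.9% of all genes, with a median log2 change of 4.99. WRKY48 had 290 ± 47.4 CPM at 100 µM against 6.08 ± 3.45 CPM at 0 µM (45.2-fold, log2 5.5 ± 0.31, edgeR adjusted p = 2.7e-12). WRKY51 had 25.4 ± 14.5 CPM against 0.779 ± 0.422 CPM, and WRKY50 had 19.5 ± 10.0 CPM against 1.56 ± 0.577 CPM. WRKY28 and WRKY59, both below 10 CPM, were the other called genes. The calls of WRKY28, WRKY51 and WRKY59 add no support, since each entered the table through CHX libraries alone.

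Of 7 genes of the MAP kinase cascade 5 were called higher and none lower at 100 µM, beside 23.8% and 14.9% of all genes. The median log2 change was 2.93, against 0.02 over all genes. MPK4, the kinase of MKS1, had no row and was not analysed here. MPK3, a MAP kinase that phosphorylates MVQ1, had 113 ± 5.28 CPM at 100 µM against 3.08 ± 0.520 CPM at 0 µM (36.7-fold, log2 5.20 ± 0.25, edgeR adjusted p = 2.1e-13). MEKK1, MKK4 and MKK5, the kinases upstream, were 13.6-fold, 11.8-fold and 7.63-fold higher, with adjusted p of 1.4e-12, 1.1e-11 and 3.5e-11 (edgeR). MPK6, which acts with MPK3, was not called, at 21.4 CPM against 25.2 CPM at 0 µM (log2 -0.26 ± 0.32, edgeR adjusted p = 0.53).

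Of 5 other partners 3 were called higher and 1 lower, beside 23.8% and 14.9% of all genes. COI1, the jasmonate receptor, had 19.4 ± 1.55 CPM at 100 µM against 9.51 ± 3.41 CPM at 0 µM (2.07-fold, edgeR adjusted p = 0.0048), and PIL5, a phytochrome-interacting factor, had 3.62 ± 1.69 CPM against 15.3 ± 1.64 CPM (4-fold lower, edgeR adjusted p = 1.6e-04). The remaining higher genes were JAZ8 and ABI5, both below 10 CPM. JAZ8 had 0 counts at 0 and 1 µM and entered the table through CHX libraries alone, so its call adds no support. SIGA, a plastid sigma factor that SIB1 binds, had 2.60 CPM against 3.75 CPM at 0 µM and was not called (edgeR adjusted p = 0.59). With total counts alone, 1 of these 5 was called higher in place of 3, where 14.3% of all genes were called higher.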

How the data were processed

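Whole Col-0 seedlings gave 12 bulk MARS-seq libraries. Per the labels, the authors ran bcl2fastq 2.17.1.14, trimmed with cutadapt 1.8.3, aligned with STAR to Araport11 models and counted with HTSeq. The authors deposited raw counts per gene with no filter on molecular identifiers, so PCR copies may be included, and both floors and intervals reflect no more than counting error. The deposited normalized signal and log2 values were not tested. The study's text assigns this record to a mutant, whereas the sample labels name CHX doses, and the labels were followed.

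Counts were fitted with edgeR 4.0.16 in R 4.3.3: TMM scaling, a quasi-likelihood model with 1 mean per dose over 12 libraries, 5 comparisons, a joint test, and Benjamini-Hochberg adjustment over 12905 genes. The script was tested on simulated data. Replicate libraries differed by more than sampling noise (chi-square per degree of freedom 3.37 to 10.9). Alternatives are in the closing section. The members and lists were chosen with earlier results of these data known. Members with a mean of at least 10 CPM at 1 or more doses are given in every library, and the rest by ranges. Partner genes named were called at 100 against 0 µM with a mean of at least 10 CPM, up to 4 per list by adjusted p; others were chosen after their values were seen. Sequences, names and overlaps came from RefSeq on TAIR10.1 (12831 of 12905 identifiers matched); sequence likeness used blastn 2.17.0 and Biopython 1.88. TAIR10.1 models may differ from those used for counting.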

Additional observations from a re-analysis of the deposited data

How the results depend on the processing

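Alternatives were RLE size factors, total counts, reference genes, filterByExpr, DESeq2 1.42.0, a replicate term, the compared groups alone, the adjusted p alone, thinning to the smallest library and each library left out. The counts of members called higher against 0 µM stayed within 1.5 times those reported under each of them. Leaving out 1 library gave 16 to 20 higher at 1 µM, 19 to 21 at 10 µM, 19 to 20 at 100 µM, 12 to 13 at 10 against 1 µM and 0 at 100 against 10 µM, with 0 lower in the first 4 comparisons, and 19 to 22 members in the joint test. At 100 against 10 µM the number called lower was 1 to 2 when libraries were left out, the second being PDE337 without a 0 µM library or 1 µM replicate 2 or 3 (log2 -1.02), and VQ9 without 10 µM replicate 1 (log2 -1.08) or 100 µM replicate 1 (log2 -1.03). It was 2 with the compared groups alone, 2 with the adjusted p alone and 3 with total counts (3.86% of all genes). At 10 against 1 µM, 3 were called lower with total counts (18.8% of all genes) and 1 with the adjusted p alone. At 100 against 10 µM, 1 was called higher with the reference genes (5.86% of all genes) and 1 with the adjusted p alone.

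With total counts the signs turned for IKU1 (log2 -0.030, -0.54 and -0.56 at 1, 10 and 100 µM), AT2G42140 at 10 µM (-0.41), VQ9 at 100 µM (-0.82) and AT5G65170 at 100 µM (-0.61). IKU1 at 1 µM was -0.011 with the reference genes. Leaving out single libraries moved AT5G65170 at 1 µM between -0.46 and 0.56 (above 0 without replicate 2 of 0 µM or of 1 µM), and IKU1 at 10 µM between -0.026 (without 10 µM replicate 1) and 0.61. None of these was called as reported, and the cause was not tested. Of members with an adjusted p of 0.05 or more between neighbouring doses, 5 of 8 at 10 against 1 µM and 10 of 21 at 100 against 10 µM turned sign under 1 or more alternatives.

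Among partners with total counts, other partners had 0 called higher and 1 lower at 10 µM and 1 higher at 100 µM, group I WRKY genes had 2 lower at 10 µM and 2 lower at 100 µM, and MAP kinase partners had 1 lower at 100 µM. Over all genes that scaling called 14.6% higher and 38.2% lower at 10 µM, and 14.3% higher and 43.7% lower at 100 µM. At 10 against 1 µM the same scaling gave 0 higher and 3 lower for group I, 1 higher for group IIc and 1 higher for MAP kinase partners. Over all genes 7.55% were called higher and 18.8% lower there. With reference genes, group I had 8 higher and 0 lower at 100 µM, group IIc 6 higher at 10 against 1 µM, and group I, group IIc and other partners 1 higher each at 100 against 10 µM. Of all genes, 31.8% were then called higher and 6.35% lower at 100 against 0 µM. The share called higher was 22.5% at 10 against 1 µM and 5.86% at 100 against 10 µM.

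Whether the replicate numbers pair the libraries is not settled. Of 18 same-numbered pairs, 4 had correlated deviations over 0.1 (range -0.07 to 0.21), and pairs with different numbers were not compared. With the replicate block, 20, 20 and 20 members were called higher at 1, 10 and 100 µM against 0 µM, 13 at 10 against 1 µM, and no call of a member changed. Depth limits AT1G17147, MVQ2 and AT2G44340, whose levels at 0 µM rest on 0 to 2 counts.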
